A study of Homo sapiens with 12 samples.

Results

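ATP-binding cassette (ABC) transporter genes were followed in HK2 cells, an immortalized human proximal tubular epithelial cell line, treated with the inflammatory cytokine TNF-α and with the short-chain fatty acids (SCFAs) propionate or butyrate. The gene table listed 58278 genes, and 46 of them had a symbol made of ABCA, ABCB, ABCC, ABCD, ABCE, ABCF or ABCG followed by digits alone. The 15 listed symbols with anything after the digits, such as pseudogenes and antisense transcripts, were left out. Messenger RNA sequencing covered 12 libraries in 6 groups of 2 biological replicates. Ctrl cells were untreated and TN cells received 5 ng/ml TNF-α for 3 h. PRTN and BUTN cells were held for 24 h in 15 mM propionate or 3 mM butyrate and then given the same TNF-α. TNPR and TNBU cells received TNF-α first and the same propionate or butyrate for 24 h afterwards. All 8 SCFA libraries therefore also carried TNF-α, and a SCFA without TNF-α was not analysed here. The extra 24 h of culture in the SCFA groups had no vehicle arm among these libraries, so SCFA exposure and the longer culture cannot be told apart.

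ABC proteins use ATP bound by paired nucleotide-binding domains to move substrates across a membrane, most of them outward from the cytosol or into an organelle. In the proximal tubule the family is known for the efflux of drugs, conjugates and organic anions into urine, and elsewhere in the cell for the export of cholesterol and phospholipid and for import into peroxisomes, lysosomes and mitochondria. The ABCE and ABCF proteins carry the ATP-binding domains without a membrane part and act on ribosomes.

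Library totals ran from 27269986 to 33851130 expected counts, so that 3 counts, used here as the floor of detection, corresponded to between 0.0867 and 0.112 CPM. CPM, the counts of a gene scaled to an equal total in each library, was computed with trimmed mean of M-values (TMM) factors. By chi-square per gene between the 2 libraries, replicates were most alike in BUTN, at 3.19, and least alike in TNPR and TNBU, at 15.3 and 18.3. By the median absolute log2 difference, PRTN was lowest at 0.113, beside 0.117 for BUTN. TNPR and TNBU were again the highest, at 0.194 and 0.222. Of the 10 proximal tubule markers checked, 7 averaged over 1 CPM across the libraries, with DPP4 at 84.9 to 109 CPM and LAP3 at 35.6 to 59.98 CPM, whereas LRP2 and MME had no count in any Ctrl or TN library and SLC34A1 stayed at or below 0.0867 CPM throughout. The summed level of the 10 averaged 379 CPM in Ctrl, 346 in TN and between 213 and 237 in the SCFA groups, and that of 5 epithelial markers 1211 and 1142 CPM and between 1759 and 2301. Most of the 10 did not follow their sum. By the calls defined below, 5 were higher than TN in each SCFA group, beside 23.1% to 25% of all tested genes. In PRTN, BUTN, TNPR and TNBU 2, 2, 1 and 2 were lower, beside 14.8% to 16.9%. The median log2 fold change of the 10 was 0.85, 1.26, 0.79 and 1.06. Markers of other cell types also moved with the SCFA groups: the summed level of 3 endothelial markers averaged 0.192 CPM in Ctrl, 0.218 in TN and between 2.28 and 3.58 in the SCFA groups, and that of 4 fibroblast markers 52.9, 45.7 and between 167 and 204 CPM, nearly all of it COL1A1. The 4 lymphocyte markers summed to at most 0.274 CPM and were at 0 in Ctrl and TN. The part of these markers in the results below was not tested. In bulk RNA, fewer cells expressing a gene and less RNA per cell cannot be told apart.

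Of the 46 ABC genes, 38 were abundant enough to be tested, meaning that the geometric mean of count plus 1, less 1, reached 1 over the 12 libraries. ABCA6, ABCA8, ABCA9, ABCB11, ABCC8, the pseudogene ABCC13, ABCG5 and ABCG8 did not reach it, and the highest count of any of these 8 in any library was 5. Among the 38, 27 averaged at least 1 CPM over all libraries and 11 lay below. The summed level of the family was 1647 to 1787 CPM in the Ctrl and TN libraries and 1386 to 1570 CPM in the SCFA libraries, while 34 to 37 members had a count in the former and 39 to 44 in the latter.

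Per kilobase of exon, the measure on which levels of different genes can be set side by side, ABCB1 (P-glycoprotein) was the most abundant member in untreated cells, at 43.5 CPM per kilobase. It was followed by the translation factors ABCF1 at 29.8 and ABCE1 at 21.0, by the glutathione-conjugate pump ABCC1 at 15.4 and by the cholesterol exporter ABCA1 at 14.2 CPM per kilobase. In PRTN cells ABCA1 stood at 3.75 CPM per kilobase and the peroxisomal importer ABCD3 at 22.2, against 11.7 for ABCD3 in Ctrl.

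The first comparison asked what TNF-α alone did to the family. No ABC gene was called higher in TN than in Ctrl and 1 was called lower, where a call needed more than 1.5-fold and a limma-voom adjusted p below 0.05. Over all 24342 tested genes, 0.764% were called higher and 0.534% lower. The count of higher members was also 0 with the edgeR quasi-likelihood test and with DESeq2. With limma-voom, 12 of the 38 had an unadjusted p under 0.05. The share of all genes under that limit was not taken, so nothing is drawn from this count. The called gene was ABCC6 (ENSG00000091262.15, chr16:16149565-16223522, minus strand), whose product mediates ATP release from the cell and is mutated in pseudoxanthoma elasticum. Its level was 5.98 and 5.92 CPM for Ctrl and 3.22 and 4.20 for TN, a log2 fold change of -0.69 (SE 0.15, adjusted p = 0.0255). The Ctrl pair lay above the TN pair. The call was lost with DESeq2, in a fit of the 2 groups alone, and without Ctrl 1, Ctrl 2 or TN 1, where the log2 fold change was -0.68, -0.70 and -0.50. ABCC6 also has near-identical pseudogenes with counts of their own: ABCC6P1 was at 2.41 and 1.89 CPM in Ctrl and 1.89 and 1.29 CPM in TN, so the split of reads between them is uncertain. ABCE1 (log2 fold change 0.34, SE 0.08, adjusted p = 0.0322) passed the p threshold with a change below 1.5-fold. The remaining 36 members had an adjusted p above 0.05.

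Propionate and butyrate were then compared with TNF-α alone, in cells given the SCFA before or after the cytokine. These 4 comparisons share the 2 TN libraries and are not independent of each other. In PRTN, 14 of the 38 tested members were called higher than in TN and 11 lower, where 23.9% and 16.7% of all tested genes were. In BUTN the counts were 13 and 10, beside 23.1% and 14.8% of all genes. TNPR gave 14 higher and 10 lower, beside 24.9% and 16.9%. TNBU gave the same counts, beside 25% and 16.5%. The members called higher include ABCD2, ABCG1, ABCG2 and, except in BUTN, ABCA13, which passed the abundance filter only through the SCFA groups and so had to be higher there, which is why the counts were repeated on the genes that averaged at least 1 CPM. Of the 27 members in that set, 8 were called higher in each comparison, and 10, 8, 9 and 10 were called lower in PRTN, BUTN, TNPR and TNBU, beside 22.0%, 18.9%, 22.8% and 21.4% of the 14984 genes that averaged 1 CPM called lower. The genes called higher in that set were 24.4%, 23.3%, 25.1% and 25%. The shares of members and of all genes were not tested against each other. At a limit of 2-fold, 5, 3, 4 and 5 of the 38 were lower, beside 9.17%, 7.44%, 9.41% and 8.79% of all genes, and 11, 11, 11 and 10 were higher, beside 18.4%, 18%, 19.4% and 19.6%. Those higher at 2-fold again include ABCD2, ABCG1, ABCG2 and, except in BUTN, ABCA13, so nothing is drawn from the higher counts at this limit. One of the 8 higher members that averaged at least 1 CPM, ABCG4, reached 1 CPM only in SCFA libraries. Scaling by library size alone raised the median log2 fold change of all genes from between 0.08 and 0.12 to between 0.23 and 0.29, and calls that this shift removed are named with each gene.

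**Figure D1:**
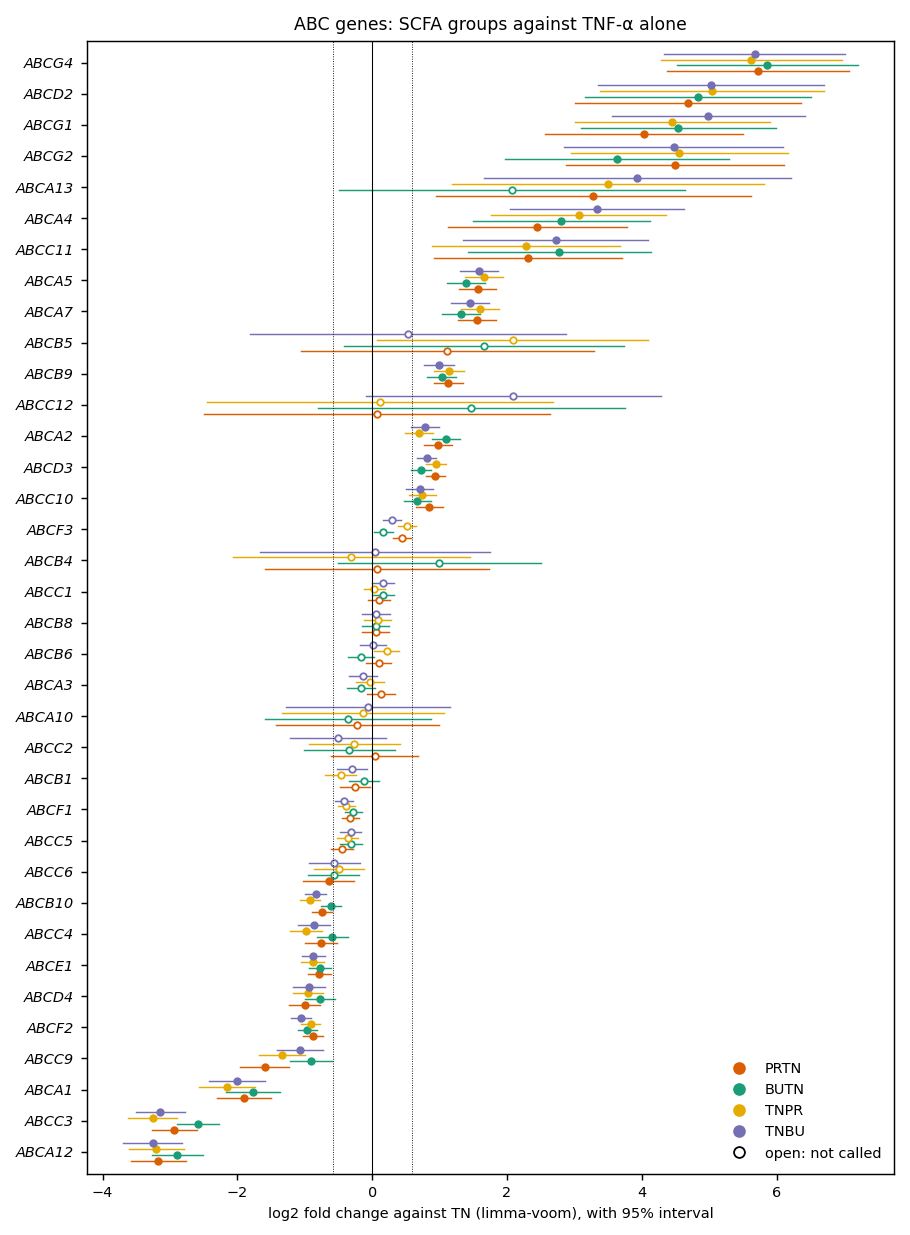
Log2 fold change against TN (horizontal axis) of 36 tested ABC genes (rows, ordered by their mean over the 4 SCFA groups), with points for PRTN, BUTN, TNPR and TNBU and lines for 95% intervals. Filled points were called at 1.5-fold (dotted lines) and adjusted p under 0.05. ABCA12, ABCC3 and ABCA1 lie farthest left, and the widest intervals belong to genes with few counts, such as ABCA13, ABCB5 and ABCC12.

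Genes for sterol and phospholipid transport were called in both directions. ABCA1 exports cholesterol and phospholipid to lipid-poor apolipoprotein A-I, and ABCA12 loads glucosylceramide into secretory granules of keratinocytes. Both were lower in every SCFA library than in any Ctrl or TN library. ABCA7 and ABCA2, which handle phospholipid and sphingolipid in the brain and other tissues, and ABCG4, which passes cholesterol to high-density lipoprotein, were higher in every SCFA library. Among the 11 members of this role, 9 were tested. ABCA1 and ABCA12 were called lower and ABCA2 and ABCA7 higher in each of the 4 comparisons. ABCA4 and ABCG4, with a few counts in Ctrl and TN, were called higher in each as well. ABCG1, which also passes cholesterol to high-density lipoprotein, passed the abundance filter only through the SCFA groups, and nothing is drawn from its call.

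ABCA1 (ENSG00000165029.15, chr9:104781006-104928155, minus strand) was at 147 and 174 CPM for Ctrl, 158 and 159 for TN, 45.8 and 39.2 for PRTN, 45.2 and 47.7 for BUTN, 41.5 and 30.3 for TNPR and 51.7 and 30.3 for TNBU. Ctrl and TN overlapped, and every SCFA library was far below both. Against TN the log2 fold change was -1.90 (PRTN), -1.77 (BUTN), -2.16 (TNPR) and -2.003 (TNBU) (SE 0.18 to 0.19, adjusted p at most 4.53e-06), or 0.224 to 0.293 of the TN level. ABCA12 (ENSG00000144452.14, chr2:214931542-215138626, minus strand) was at 21.5 and 24.5 CPM for Ctrl, 28.1 and 32.1 for TN, 3.68 and 2.98 for PRTN, 3.72 and 4.36 for BUTN, 3.58 and 2.94 for TNPR and 4.03 and 2.46 for TNBU. Its log2 fold change was -3.17 (PRTN), -2.89 (BUTN), -3.20 (TNPR) and -3.26 (TNBU) (SE 0.17 to 0.20), the largest fall in the family in PRTN, BUTN and TNBU.

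ABCA7 (ENSG00000064687.12, chr19:1039997-1065572, plus strand) was at 37.9 and 37.4 CPM for Ctrl, 25.7 and 32.99 for TN, 86.3 and 84.7 for PRTN, 75.8 and 68.9 for BUTN, 100.3 and 77.01 for TNPR and 78.3 and 80.6 for TNBU, and the lowest SCFA library exceeded the highest of Ctrl and TN. Its log2 fold change was 1.55 (PRTN), 1.31 (BUTN), 1.59 (TNPR) and 1.45 (TNBU) (SE 0.13, adjusted p at most 2.97e-06). ABCA2 (ENSG00000107331.16, chr9:137007234-137028915, minus strand) was at 54.4 and 54.1 CPM for Ctrl, 39.4 and 48.2 for TN, 83.9 and 87.2 for PRTN, 97.8 and 89.2 for BUTN, 75.7 and 65.9 for TNPR and 77.00 and 73.6 for TNBU. It rose by a log2 fold change of 0.97 (PRTN), 1.10 (BUTN), 0.70 (TNPR) and 0.79 (TNBU) (SE 0.09 to 0.10), and its call in TNPR was lost without TN 1 or TNPR 1, at 0.52 and 0.55. ABCA3, the lamellar-body lipid transporter of the lung, was at 51.05 to 67.8 CPM with no call, at log2 fold changes between -0.16 and 0.13.

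ABCG4 (ENSG00000172350.9, chr11:119149052-119162653, plus strand) gave the largest rise of the family. Its expected counts were 1 and 2 for Ctrl, 1 and 3 for TN, 145 and 154 for PRTN, 162 and 162 for BUTN, 133 and 136 for TNPR and 103 and 151 for TNBU, which is 3.61 to 5.07 CPM in the SCFA libraries. The fitted log2 fold change was 5.72 (PRTN), 5.86 (BUTN), 5.62 (TNPR) and 5.67 (TNBU) (SE 0.62), which depends on the small count added to each value because TN held only 4 counts in all. As a ratio of scaled counts, PRTN stood at 60.7 (23.4 to 224) times TN and TNBU at 59.2 (22.8 to 219) times, with 95% counting intervals in brackets.

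ABCG4, ABCA2, ABCA12 and ABCA1 gave the 2 largest rises and the 2 largest falls among called members of at least 1 CPM whose RefSeq promoter window (GRCh38.p14) lay outside the gene's GENCODE 44 span, and the 250 bases before each start are shown so that these windows can be compared. They run 5′ to 3′ on the gene's strand, and capitals mark the motifs searched on both strands: the GC box GGGCGG, the CAAT box letters CCAAT, the TATA box letters TATAAA, the E-box CACGTG and the AP-1 letters TGANTCA. A direct repeat bound by liver X receptors (LXRs) was added after the ABCA1 window had been read. It was searched as AGGTNA followed, after a gap of 4 bases, by the letters NGGTCA. No motif match overlapped another in the windows shown.
ABCG4, chr11:119148802-119149051, plus strand: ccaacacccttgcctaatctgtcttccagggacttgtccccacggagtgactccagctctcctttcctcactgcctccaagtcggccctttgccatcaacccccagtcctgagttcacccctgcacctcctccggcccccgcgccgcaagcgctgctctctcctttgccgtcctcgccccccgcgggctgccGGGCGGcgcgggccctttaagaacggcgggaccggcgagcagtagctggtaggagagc
ABCA2, chr9:137028923-137029172, minus strand: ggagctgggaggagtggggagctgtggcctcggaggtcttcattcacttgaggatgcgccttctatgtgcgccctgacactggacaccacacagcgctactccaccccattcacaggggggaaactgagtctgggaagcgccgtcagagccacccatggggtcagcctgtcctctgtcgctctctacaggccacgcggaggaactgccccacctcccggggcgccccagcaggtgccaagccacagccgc
ABCA12, chr2:215138627-215138876, minus strand: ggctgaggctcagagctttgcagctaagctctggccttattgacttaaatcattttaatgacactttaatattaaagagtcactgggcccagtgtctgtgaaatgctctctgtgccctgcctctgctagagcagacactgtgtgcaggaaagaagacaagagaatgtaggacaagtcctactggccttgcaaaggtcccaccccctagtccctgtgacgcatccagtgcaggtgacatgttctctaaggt
ABCA1, chr9:104928156-104928405, minus strand: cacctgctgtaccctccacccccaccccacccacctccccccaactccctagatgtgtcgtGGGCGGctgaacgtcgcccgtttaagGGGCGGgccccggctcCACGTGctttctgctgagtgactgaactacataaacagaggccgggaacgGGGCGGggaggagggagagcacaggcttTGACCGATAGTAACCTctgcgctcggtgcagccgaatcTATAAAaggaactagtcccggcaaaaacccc
The ABCA1 window held 3 GC boxes, 1 CACGTG, 1 TATAAA and the LXR repeat, the longest run of capitals, found on the opposite strand. Because that repeat was written after the ABCA1 window had been read, its match there was fixed in advance. The repeat was in 0.0797% of all 35116 promoter windows and in no other of the 35 ABC windows, and nothing is drawn from this. The ABCG4 window had 1 GC box, and the ABCA2 and ABCA12 windows had none of the motifs. ABCA12 stood apart in composition, with 48.8% G and C and a CpG ratio of 0.0672, where a ratio of 1 means as many CpG dinucleotides as its C and G content predicts, against 0.682 for ABCA1, 0.725 for ABCG4 and 0.452 for ABCA2.

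LXRs are the nuclear receptors known to switch on ABCA1 and ABCG1, together with MYLIP, which marks the LDL receptor for degradation, and LPCAT3, which remodels membrane phospholipid. The 2 receptor genes were not called: NR1H2 was at 32.02 to 35.8 CPM in Ctrl and TN and 23.6 to 26.4 CPM in SCFA libraries (log2 fold change -0.36 to -0.48, adjusted p at most 0.000774 but below 1.5-fold), and NR1H3 at 4.99 to 5.59 CPM and 4.03 to 4.97 CPM. MYLIP was at 4.19 and 2.80 CPM for Ctrl, 2.79 and 3.27 for TN, 13.9 and 13.9 for PRTN, 12.2 and 12.6 for BUTN, 13.1 and 9.05 for TNPR and 10.4 and 9.19 for TNBU, higher in every SCFA library (log2 fold change 1.68 to 2.20, SE 0.23 to 0.24, adjusted p at most 5.14e-05). LPCAT3 rose by 1.10 to 1.53 (SE 0.06 to 0.07), from 32.7 to 35.6 CPM in TN to 72.1 to 101 CPM. PPARD, a receptor for fatty acids, rose by 1.43 to 1.65 (SE 0.07), from 23.98 to 24.2 CPM to 62.6 to 77.3 CPM. MYLIP, LPCAT3 and PPARD, chosen for the size of their change in these data, were higher where ABCA1 was lower. SREBF1, another of the listed regulators, moved less, averaging 80.3 CPM in TN and 90.7 to 104 CPM in the SCFA groups. The activity of LXRs was not tested. Of the 20 regulators listed, 17 were tested, and 6, 5, 6 and 5 were called higher in PRTN, BUTN, TNPR and TNBU, with 1, 0, 0 and 0 lower. Beside this list and the next, 23.1% to 25% of all tested genes were called higher and 14.8% to 16.9% lower. Among 9 acceptors and carriers of lipid, 8 were tested, and 2, 1, 3 and 2 were called higher and 1 lower in each. The latter was APOC1, an apolipoprotein, at 4.28 to 5.70 CPM in TN and 1.39 to 2.05 CPM in SCFA libraries.

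The efflux pumps known from the tubule differed in their response. ABCC3 (MRP3), a basolateral exporter of glucuronide conjugates and bile salts, fell most, ABCC4 (MRP4), an exporter of urate, cyclic nucleotides and organic anions, fell by less, and ABCB1 and ABCC1 (MRP1) were not called. All 11 members of this role were tested, and 3, 2, 2 and 2 were called lower in PRTN, BUTN, TNPR and TNBU, beside the 16.7%, 14.8%, 16.9% and 16.5% of all tested genes given above. ABCC10 was called higher in each. So was ABCC11, which rested on 3 counts in TN. ABCG2 passed the filter only through the SCFA groups, and nothing is drawn from its call.

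ABCC3 (ENSG00000108846.15, chr17:50634777-50692253, plus strand) was at 47.3 and 49.9 CPM for Ctrl, 50.3 and 54.5 for TN, 6.80 and 6.87 for PRTN, 8.70 and 8.70 for BUTN, 7.14 and 4.13 for TNPR and 6.48 and 5.41 for TNBU. All SCFA libraries were far below the rest. The log2 fold change was -2.94 (PRTN), -2.59 (BUTN), -3.26 (TNPR) and -3.14 (TNBU) (SE 0.14 to 0.17, adjusted p at most 2.36e-08), which left 0.105 to 0.166 of the TN level. ABCC4 (ENSG00000125257.13, chr13:95019835-95301475, minus strand) was at 89.1 and 92.4 CPM for Ctrl, 94.9 and 95.1 for TN, 58.6 and 53.8 for PRTN, 62.7 and 63.4 for BUTN, 48.9 and 46.9 for TNPR and 61.5 and 44.8 for TNBU. It too lay lower in each SCFA library, with a log2 fold change of -0.76 (PRTN), -0.59 (BUTN), -0.99 (TNPR) and -0.86 (TNBU) (SE 0.11, adjusted p at most 0.000442). The BUTN value sits at the 1.5-fold limit, and its call was lost with DESeq2 (-0.57), with relative log expression or library size scaling (-0.57 and -0.44) and with a stricter filter on low genes (-0.58 and -0.55).

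ABCB1, the P-glycoprotein that pumps hydrophobic drugs, was at 277 and 281 CPM for Ctrl, 328 and 329 for TN, 274 and 276 for PRTN, 302 and 301 for BUTN, 254 and 221 for TNPR and 309 and 231 for TNBU. Every SCFA library lay below both TN libraries and they fell on either side of Ctrl. Its log2 fold change against TN was -0.26 (PRTN), -0.12 (BUTN), -0.47 (TNPR) and -0.30 (TNBU) (SE 0.10), with adjusted p between 0.00195 and 0.341, and none reached 1.5-fold. Without TNPR 1 the TNPR value was -0.62 and was called. ABCC1 (ENSG00000103222.18, chr16:15949138-16143257, plus strand) was at 128 and 141 CPM for Ctrl, 128 and 139 for TN, 144 and 143 for PRTN, 154 and 144 for BUTN, 132 and 141 for TNPR and 158 and 142 for TNBU, with all SCFA libraries but TNPR 1 above both TN libraries by a small margin and 95% intervals of the log2 fold change that lay between -0.13 and 0.32 over the 4 comparisons, so that a change of 1.5-fold is outside them.

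ABCC2 (MRP2), the apical partner of ABCC3, was close to detection at 1.17 and 1.08 CPM for Ctrl, 0.596 and 1.01 for TN, 0.811 and 0.791 for PRTN, 0.563 and 0.665 for BUTN, 0.622 and 0.672 for TNPR and 0.490 and 0.597 for TNBU and was not called, with intervals that ran from -1.22 to 0.68. Without TN 1 it was called lower in TNBU, at -0.89. ABCC5 (MRP5), a cyclic nucleotide exporter, lay lower in every SCFA library at 46.02 to 53.6 CPM against 61.2 to 71.2 CPM, with a log2 fold change of -0.32 to -0.45 (adjusted p at most 0.00259) that did not reach 1.5-fold. ABCC6 was at 2.20 to 2.62 CPM in the SCFA libraries and 3.22 to 4.20 CPM in TN. It was called in PRTN at -0.65, with BUTN, TNPR and TNBU at -0.57, -0.49 and -0.56, and its PRTN call was lost by library size scaling (-0.49), without TN 2 (-0.48) and without PRTN 2 (-0.56). Without TN 1 it was called in BUTN, TNPR and TNBU as well, at -0.79, -0.71 and -0.76. Its BUTN and TNBU values also passed 1.5-fold under some other filters and without BUTN 1, TNPR 1, TNBU 1 or TNBU 2, so that a call of ABCC6 turned on single libraries. ABCC10 (MRP7), an exporter of lipophilic anions, rose by 0.85 (PRTN), 0.67 (BUTN), 0.74 (TNPR) and 0.71 (TNBU) (SE 0.09). It was at 17.7 and 19.1 CPM for Ctrl, 16.1 and 18.5 for TN, 30.6 and 31.6 for PRTN, 27.03 and 27.8 for BUTN, 30.5 and 27.4 for TNPR and 28.9 and 27.5 for TNBU, and its BUTN call was lost without TN 1, at 0.54.

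**Figure D2:**
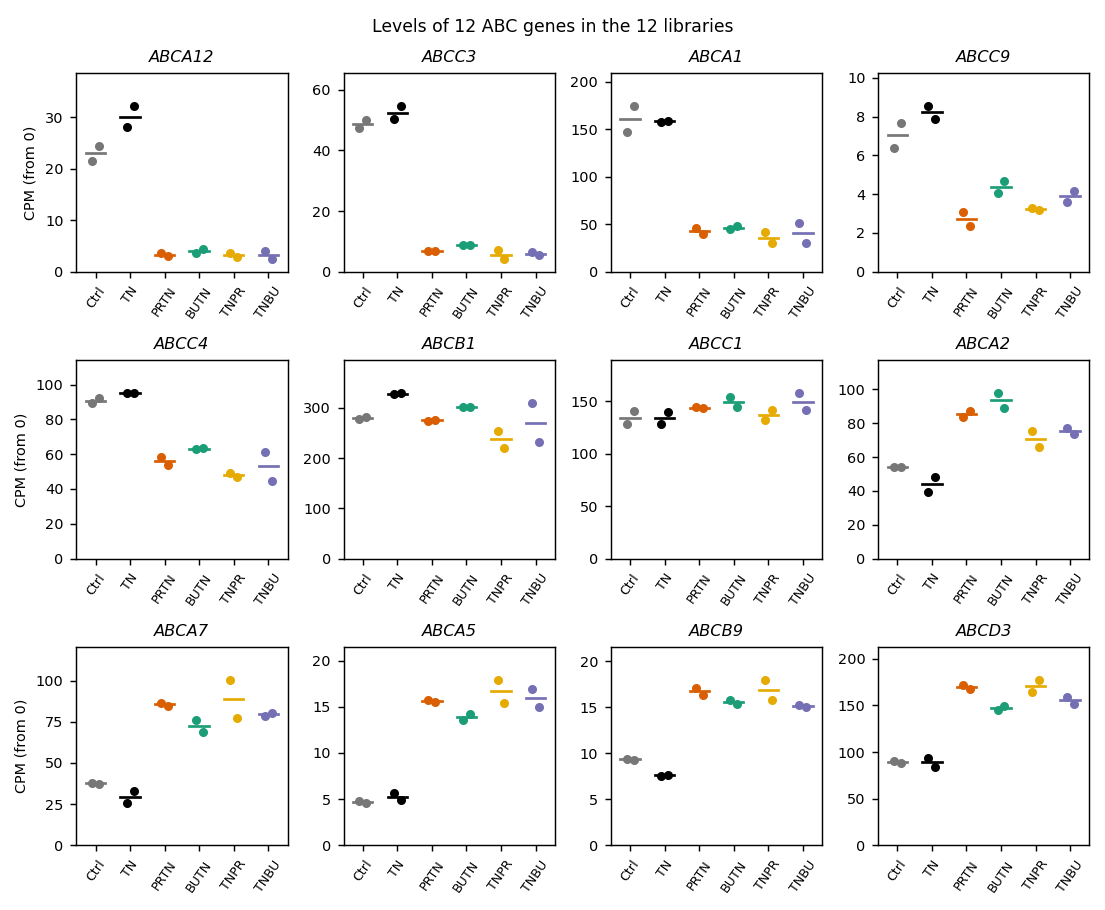
CPM (vertical axes, from 0) of 12 ABC genes in the 6 groups (horizontal axes), with a point for each library and a bar for the mean of 2. ABCA12, ABCC3, ABCA1, ABCC9 and ABCC4 are lower in all 8 SCFA libraries, ABCB1 and ABCC1 differ by less than 1.5-fold from TN, and ABCA2, ABCA7, ABCA5, ABCB9 and ABCD3 are higher in all 8.

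Uptake carriers bring the organic ions into the tubule cell that ABC pumps send out. Of the 19 listed, 14 were tested, and 6 were called lower in each comparison, with 2, 4, 1 and 1 higher in PRTN, BUTN, TNPR and TNBU. Over all tested genes, 14.8% to 16.9% were called lower and 23.1% to 25% higher. SLCO2A1, the prostaglandin carrier, was at 137 and 144 CPM for Ctrl, 146 and 153 for TN, 23.3 and 24.00 for PRTN, 33.8 and 29.6 for BUTN, 25.5 and 22.7 for TNPR and 26.7 and 23.1 for TNBU, a log2 fold change of -2.24 to -2.66 (SE 0.08 to 0.09). SLC22A4, the ergothioneine carrier, was called higher by TNF-α alone, from 10.1 to 10.4 CPM to 19.5 to 20.3 CPM, and was at 1.97 to 2.86 CPM in SCFA libraries. SLC22A3, an organic cation carrier, went from 11.3 to 12.2 CPM to 1.57 to 3.82 CPM. The log2 fold change was -2.83 to -3.16 for SLC22A4 and -1.68 to -2.59 for SLC22A3.

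ABCC9 (SUR2) and ABCC8 (SUR1) transport nothing themselves. They are the sulphonylurea receptor subunits that surround the pore of the ATP-sensitive potassium channel, built by KCNJ8 or KCNJ11. ABCC8 had at most 3 counts in a library. ABCC9 (ENSG00000069431.11, chr12:21797389-21942543, minus strand) was at 6.39 and 7.67 CPM for Ctrl, 8.53 and 7.90 for TN, 3.07 and 2.37 for PRTN, 4.07 and 4.65 for BUTN, 3.29 and 3.17 for TNPR and 3.61 and 4.18 for TNBU. All SCFA libraries were lower than all others, and PRTN was the lowest group. The log2 fold change was -1.60 (PRTN), -0.91 (BUTN), -1.34 (TNPR) and -1.07 (TNBU) (SE 0.15 to 0.17, adjusted p at most 0.000178). The pore gene KCNJ8 moved the other way, at 4.26 and 3.26 CPM for Ctrl, 2.31 and 2.80 for TN, 9.17 and 8.90 for PRTN, 11.1 and 10.6 for BUTN, 7.65 and 8.83 for TNPR and 9.87 and 8.84 for TNBU (log2 fold change 1.68 to 2.08, SE 0.17 to 0.18, adjusted p at most 3.95e-06). KCNJ11 was listed at 0 in both TN libraries and at 0.256 to 0.697 CPM in the SCFA libraries. In TN against Ctrl the median log2 fold change of KCNJ8 and KCNJ11 was -1.12, with 0 called, so TN is not taken as the untreated level of KCNJ11. ABCC9 was called lower and KCNJ8 higher in each comparison. KCNJ11 was called higher as well, but with no count in TN nothing is drawn from its call.

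Importers of organelles were also called in both directions. ABCD2 and ABCD3 are half-transporters of the peroxisome that carry fatty acyl-CoA inward. ABCD4 sits in the lysosome and releases vitamin B12, and ABCB9 brings peptides into lysosomes. ABCD3 and ABCB9 were called higher in each comparison and ABCD4 was called lower. ABCD2, near 0 in Ctrl and TN, is given by its counts further on.

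ABCD3 (ENSG00000117528.11, chr1:94418389-94518666, plus strand) was at 90.8 and 87.9 CPM for Ctrl, 93.98 and 84.1 for TN, 172 and 168 for PRTN, 145 and 149 for BUTN, 165 and 177 for TNPR and 159 and 152 for TNBU. Each SCFA library exceeded each Ctrl and TN library, and the log2 fold change was 0.94 (PRTN), 0.73 (BUTN), 0.94 (TNPR) and 0.81 (TNBU) (SE 0.07, adjusted p at most 1.59e-06). ABCB9 was at 9.41 and 9.30 CPM for Ctrl, 7.57 and 7.68 for TN, 17.1 and 16.3 for PRTN, 15.8 and 15.4 for BUTN, 17.95 and 15.7 for TNPR and 15.3 and 15.1 for TNBU, a log2 fold change of 0.99 to 1.14 (SE 0.10). ABCD4 (ENSG00000119688.20, chr14:74285269-74303055, minus strand) was at 32.7 and 30.6 CPM for Ctrl, 27.2 and 28.7 for TN, 13.5 and 14.4 for PRTN, 16.3 and 16.2 for BUTN, 15.4 and 13.5 for TNPR and 12.99 and 16.4 for TNBU. It was lower in every SCFA library, with a log2 fold change of -1.003 (PRTN), -0.78 (BUTN), -0.95 (TNPR) and -0.94 (TNBU) (SE 0.10 to 0.11, adjusted p at most 3.35e-05).

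Other peroxisomal genes mostly had no call. Among 21 genes for assembly and oxidation, all tested, 3, 2, 4 and 3 were called higher in PRTN, BUTN, TNPR and TNBU and 2, 1, 1 and 1 lower. The shares of all tested genes were 23.1% to 25% higher and 14.8% to 16.9% lower. PEX14, the docking protein for imported enzymes, fell from 28.1 to 31.7 CPM to 13.7 to 15.6 CPM (-0.92 to -1.05, SE 0.07 to 0.08). PEX6, an ATPase that recycles the import receptor, rose from 13.2 to 14.5 CPM in TN to 21.96 to 28.8 CPM (0.68 to 1.04). ACOX2, the branched-chain acyl-CoA oxidase, was at or below 0.0745 CPM in Ctrl and TN and at 0.701 to 1.34 CPM in the SCFA groups.

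In mitochondria, ABCB10 works in haem synthesis and was lower in every SCFA library, while ABCB6, a porphyrin carrier, and ABCB8, part of a mitochondrial potassium channel, were not called. ABCB10 (ENSG00000135776.4, chr1:229516582-229558707, minus strand) was at 35.1 and 35.9 CPM for Ctrl, 42.4 and 41.1 for TN, 25.6 and 24.00 for PRTN, 27.5 and 27.4 for BUTN, 21.4 and 22.8 for TNPR and 23.9 and 22.8 for TNBU, and its log2 fold change was -0.75 (PRTN), -0.61 (BUTN), -0.92 (TNPR) and -0.84 (TNBU) (SE 0.07, adjusted p at most 8.48e-06). The BUTN value is close to 1.5-fold, and its call was lost by library size scaling, at -0.45, and with genes of at least 1 CPM only, at -0.56. ABCB6 stayed at 33.7 to 47.5 CPM and ABCB8 at 23.5 to 28.97 CPM, with intervals of the log2 fold change within -0.35 and 0.40 for ABCB6 and within -0.15 and 0.28 for ABCB8.

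Of 15 mitochondrial genes for haem and iron-sulphur clusters, 6, 1, 7 and 6 were called higher in PRTN, BUTN, TNPR and TNBU and 3 lower in each. The shares of all tested genes were 23.1% to 25% higher and 14.8% to 16.9% lower. UROD, a decarboxylase of haem synthesis, fell from 67.8 to 73.5 CPM to 29.7 to 33.2 CPM (-1.13 to -1.24, SE 0.07). ALAD, an earlier enzyme of the haem pathway, rose from 21.4 to 22.6 CPM in TN to 44.6 to 56.6 CPM (1.15 to 1.32, SE 0.09).

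Of the 4 family members that act on ribosomes, all abundant, ABCE1 and ABCF2 were called lower in each comparison. ABCE1, which splits ribosomes after termination, was at 132 and 130.4 CPM for Ctrl, 171 and 162 for TN, 95.7 and 97.4 for PRTN, 93.3 and 101 for BUTN, 89.7 and 90.3 for TNPR and 99.3 and 82.5 for TNBU. TN was the highest group and every SCFA library lay below Ctrl, with a log2 fold change against TN of -0.78 (PRTN), -0.77 (BUTN), -0.89 (TNPR) and -0.88 (TNBU) (SE 0.08, adjusted p at most 3.35e-06). ABCF2 (ENSG00000033050.7, chr7:151211484-151227205, minus strand) was at 68.9 and 67.6 CPM for Ctrl, 77.8 and 78.8 for TN, 40.5 and 44.7 for PRTN, 41.1 and 39.3 for BUTN, 41.9 and 41.2 for TNPR and 39.1 and 36.1 for TNBU. Its log2 fold change was -0.88 (PRTN), -0.96 (BUTN), -0.91 (TNPR) and -1.06 (TNBU) (SE 0.07). ABCF1, a partner of initiation factor eIF2, was lower in every SCFA library (110.5 to 128 CPM against 131 to 156 CPM) but by less than 1.5-fold (-0.28 to -0.42, adjusted p at most 0.00126). ABCF3 lay on the other side at 0.16 to 0.52, also below 1.5-fold, and was called higher in PRTN and TNPR by library size scaling, at 0.60 and 0.69. Of 9 other genes for ribosome recycling and initiation, none was called higher with limma-voom and 2, 2, 2 and 3 were called lower, among them EIF3J (-0.70 to -0.81) and GCN1 (-0.61 to -0.73), the partner through which stalled ribosomes are sensed. Over all tested genes, 23.1% to 25% were called higher and 14.8% to 16.9% lower.

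Beside the 46 members, 3 ABC proteins carry other symbols. TAP1 and TAP2 together carry peptides to HLA class I. TAP2 was at 64.4 and 63.9 CPM for Ctrl, 68.7 and 75.2 for TN, 30.1 and 30.7 for PRTN, 37.6 and 35.4 for BUTN, 33.02 and 31.3 for TNPR and 38.2 and 35.8 for TNBU, a log2 fold change of -0.96 to -1.24 (SE 0.07, adjusted p at most 1.93e-07). TAP1 stayed at 20.7 to 27.4 CPM and was not called. CFTR, the chloride channel of the family, was at or below 0.394 CPM in every library and was called lower in PRTN alone, at -2.24 (adjusted p = 0.00886). Whether PRTN differed there from the other groups was not tested.

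Several members were near 0 in Ctrl and TN and had counts in the SCFA groups. Their numbers are given as counts. ABCG1, ABCG2, ABCD2 and ABCA13 could be tested only through the SCFA groups and support no statement on the family, while ABCA4 and ABCC11 would have passed the filter on Ctrl and TN alone. ABCG1 (ENSG00000160179.18, chr21:42199689-42297244, plus strand) had expected counts of 1 and 0 for Ctrl, 0 and 1 for TN, 19.09 and 15 for PRTN, 23 and 25 for BUTN, 24 and 20 for TNPR and 30 and 28 for TNBU. ABCG2 (BCRP; ENSG00000118777.10, chr4:88090150-88231628, minus strand), an exporter of urate and drugs in the apical tubule membrane, had 0 and 0 for Ctrl, 1 and 0 for TN, 23 and 24 for PRTN, 16 and 10 for BUTN, 21 and 27 for TNPR and 16 and 25 for TNBU. ABCG1 and ABCG2 had no more than 1 count in any Ctrl or TN library and at least 10 in each SCFA library. As ratios of scaled counts to TN, ABCG1 stood at 27.6 (4.63 to 1121) in PRTN and 54.1 (9.33 to 2173) in TNBU, and ABCG2 at 21.4 (3.51 to 876) in BUTN and 40.4 (6.91 to 1628) in TNPR, with 95% counting intervals. The level of either in SCFA cells remained at or below 1.05 CPM. ABCD2, the peroxisomal fatty acid importer, had 0 and 2 for Ctrl, 0 and 0 for TN, 18 and 13 for PRTN, 12 and 23 for BUTN, 19 and 19 for TNPR and 18 and 16 for TNBU. With no count in TN, it was at least 8.39-fold higher in PRTN, 9.59-fold in BUTN, 10.7-fold in TNPR and 10.6-fold in TNBU, taking 3 counts over the TN group as the floor. ABCA4, the retinoid transporter of the retina, had 3 and 7 for Ctrl, 4 and 2 for TN, 23 and 21 for PRTN, 25 and 31 for BUTN, 27 and 40 for TNPR and 28 and 45 for TNBU. Each SCFA library held more than any Ctrl or TN library. Its ratio to TN was 5.95 (2.53 to 17.1) in PRTN, whose call was lost without TN 2, and 11.3 (4.97 to 31.9) in TNBU. ABCC11 (MRP8) had 3 counts over TN and 23, 32, 21 and 26 over the pairs of PRTN, BUTN, TNPR and TNBU, and its TNPR call was lost with DESeq2 and its PRTN and TNPR calls without TN 1. ABCA13 had no count in Ctrl or TN and 11, 5, 16 and 18 over the pairs, and its PRTN, TNPR and TNBU calls were each lost without either TN library, with DESeq2 in PRTN, and in PRTN without PRTN 1 and in TNPR without TNPR 2. Its TNPR call was also lost in a fit of the groups compared alone. ABCB4, ABCB5, ABCC12 and ABCA10 also stayed under 1 CPM and were not called. Intervals and floors on these counts cover counting error only.

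**Figure D3:**
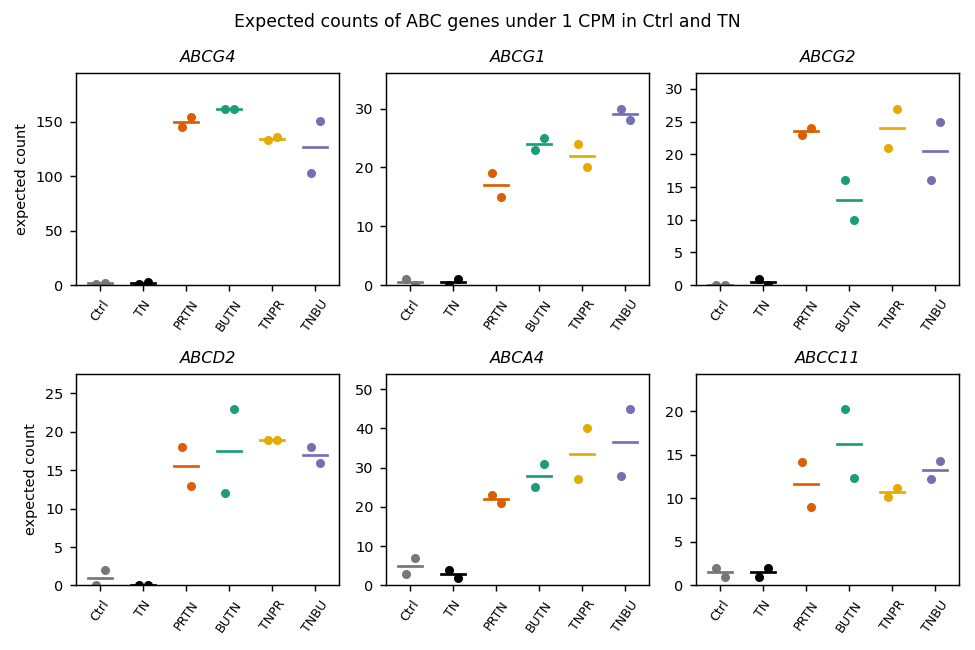
Expected counts (vertical axes, from 0) of 6 ABC genes with under 1 CPM in Ctrl and TN, by group (horizontal axes), with a point for each library and a bar for the mean of 2. ABCG4 reaches over 100 counts in each SCFA library, while the other 5 genes stay at 45 counts or fewer.

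Some members are neighbours. ABCA5 (ENSG00000154265.15, chr17:69244311-69327244, minus strand), a lysosomal member linked to cholesterol handling, ends a row on chromosome 17 with ABCA8, ABCA9, ABCA6 and ABCA10. It was at 4.81 and 4.59 CPM for Ctrl, 5.62 and 4.95 for TN, 15.7 and 15.5 for PRTN, 13.5 and 14.2 for BUTN, 17.9 and 15.4 for TNPR and 16.9 and 14.97 for TNBU, above Ctrl and TN in every SCFA library, with a log2 fold change of 1.56 (PRTN), 1.40 (BUTN), 1.66 (TNPR) and 1.59 (TNBU) (SE 0.13, adjusted p at most 1.75e-06). ABCA10 overlaps it by 536 bases on the same strand and was at 0.118 to 0.358 CPM with no call, and ABCA6, ABCA8 and ABCA9 were too low to test. On chromosome 7, ABCB1 and ABCB4 lie 22581 bases apart, ABCB1 at over 200 CPM and ABCB4 at 0.0320 to 0.355 CPM. On chromosome 16, ABCC1 and ABCC6 are separated by 6307 bases and face each other, and ABCC11 and ABCC12 by 9754 bases on the same strand. ABCG5 and ABCG8, the sterol exporters of gut and liver, overlap on opposite strands of chromosome 2, and neither had more than 1 count in a library. Reads shared between such close relatives, ABCB1 and ABCB4 or ABCC11 and ABCC12, may have been divided by the counting, so the lower member of each pair is uncertain.

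Promoter composition was compared among members in the same 250 bases, for the 35 of 46 with a RefSeq entry. ABCA4, ABCA8, ABCB4, ABCB5, ABCC1, ABCC13, ABCC3, ABCC8 and ABCG1 were among those without one. The 8 windows of members called lower in each of the 4 comparisons, which share TN, had a median G and C content of 60.8% and a median CpG ratio of 0.900. The 6 of members called higher that had at least 1 CPM in Ctrl or TN had 72.4% and 0.792, and the 10 of members without a call 63.0% and 0.676. Of members under 1 CPM in Ctrl and TN, 4 that were called higher had a median ratio of 0.318, and 5 that were too low to test had 0.204, beside 0.558 over all promoter windows. The 4 include ABCD2 and ABCG2, which passed the abundance filter only through the SCFA groups, so nothing is drawn from setting these medians side by side. Among the 8 lower members the ratio ran from 0.0672 for ABCA12 to 1.13 for ABCC9. These medians over a few windows are descriptions, with no test. The GC box GGGCGG was in 5 of 6 windows of the higher members with at least 1 CPM, in 5 of 8 of the lower members and in 42.6% of all windows, and CCAAT in 1 of 6, 1 of 8 and 32.0%. TATAAA was in 0 of 6, 1 of 8 and 10.7% of all windows, CACGTG in 0, 1 and 6.34%, and TGANTCA in 0, 0 and 6.57%.

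Propionate and butyrate were used at different doses, 15 mM and 3 mM, so their groups are set side by side as they were treated and not as equal doses. No member was called between PRTN and BUTN or between TNPR and TNBU, where 0.0411% and 0% of all genes were called higher and 0.127% and 0.00822% lower. The 2 other tools, edgeR and DESeq2, also called none of the 38. With limma-voom, 7 and 2 of the 38 had an unadjusted p under 0.05, but the share of all genes under that limit was not taken. Of the 27 members with at least 1 CPM, 24 had a 95% interval of the log2 fold change that lay within 1.5-fold in each of these 2 comparisons. Among these 27, the largest difference was that of ABCC9, which was lower in PRTN than in BUTN by a log2 fold change of -0.69 (95% interval -1.07 to -0.30, adjusted p = 0.103) and lower in TNPR than in TNBU by -0.27. It was called only in a fit of PRTN and BUTN alone, at -0.68 (adjusted p = 0.0416). ABCF3 gave the lowest adjusted p, 0.0638, with a log2 fold change of 0.28 (95% interval 0.15 to 0.41).

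The SCFA given after TNF-α was compared with the same SCFA given before it. Between TNPR and PRTN and between TNBU and BUTN no member was called, where 0.0534% and 0.0945% of all genes were called higher and 0.107% and 0.173% lower. The edgeR and DESeq2 tests called none. With limma-voom, 2 and 5 members had an unadjusted p under 0.05, again without a share of all genes to set beside them. Among the 27, 24 had an interval within 1.5-fold in each, and ABCC3 differed most, at -0.32 between TNPR and PRTN and -0.56 (95% interval -0.97 to -0.14, adjusted p = 0.209) between TNBU and BUTN. ABCA2 lay lower when the SCFA came second, at -0.28 and -0.31 (adjusted p = 0.276 and 0.149), and so did ABCB10, at -0.17 and -0.23 (adjusted p = 0.412 and 0.169). The order and the time between TNF-α and harvest differ together in these groups and cannot be told apart. Whether the effect of order differed between propionate and butyrate was tested as a difference of differences. No member was called with limma-voom, edgeR or DESeq2, none had an unadjusted p under 0.05, 0% of all genes were called with limma-voom, and 21 of the 27 members with at least 1 CPM had an interval within 1.5-fold, with ABCC9 the largest at 0.42.

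**Figure D4:**
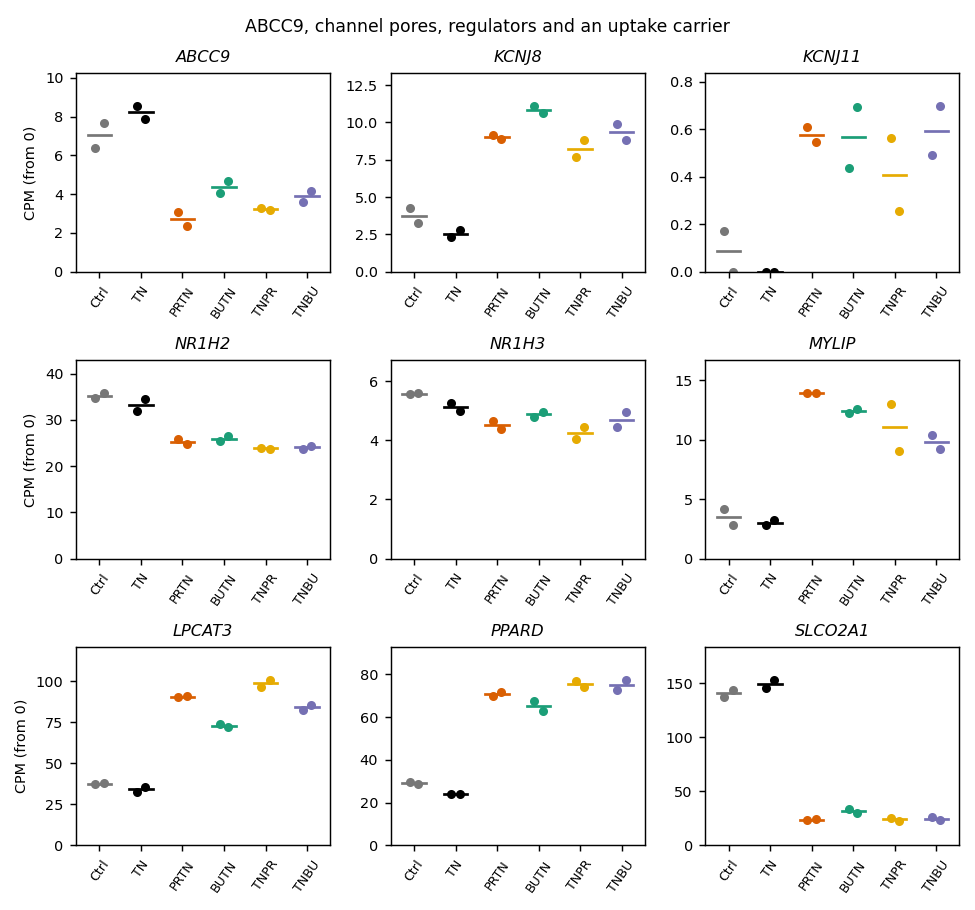
CPM (vertical axes, from 0) of ABCC9 and 8 genes that work beside the family, by group (horizontal axes), with a point for each library and a bar for the mean of 2. ABCC9 and SLCO2A1 are lower in all 8 SCFA libraries and the pore genes KCNJ8 and KCNJ11 and the genes MYLIP, LPCAT3 and PPARD are higher, while NR1H2 and NR1H3 were not called and lie slightly lower in all 8.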

How the data were processed

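Poly(A) RNA of HK2 cells (12 libraries, stranded TruSeq mRNA kit) had been aligned by the authors with STAR 2.6.1a to GRCh38 and summarised with RSEM, and FastQC 0.11.5 was used for read quality. The annotation was GENCODE 26 per the methods. The deposited values are RSEM expected counts per gene, which need not be whole, and the strand setting of the counting is not given in the sources used here. The general treatment text of the labels names other agents, thapsigargin and JQ1, than the description of each library, and groups were taken from the latter.

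Members and gene lists were chosen with earlier results of these data known. Genes were kept where the geometric mean of count plus 1, less 1, was at least 1 (24342 of 58278). Expected counts, unrounded, were scaled with TMM and fitted with limma-voom 3.58.1 (R 4.3.3) in 1 model of 6 group means over 12 libraries, with Benjamini-Hochberg adjustment over all tested genes. The fit, edgeR 4.0.16 (quasi-likelihood) and DESeq2 1.42.0 (rounded counts) were tested on simulated data. Genes were called at a fold change over 1.5 and adjusted p under 0.05. With biological duplicates, p-values measure the spread between such pairs, pooled over groups. Members are named with values in every library if called in the same direction against TN in each of the 4 SCFA groups with at least 1 CPM, if called in TN against Ctrl, or if among 8 efflux pumps and sterol exporters chosen for the kidney. Partners are the 3 called genes of at least 1 CPM per list with the largest mean change, and NR1H2, NR1H3, SREBF1, KCNJ11, TAP1, CFTR and the other members with values were added after their values were seen. Some genes that met these rules are not reported here, but stay in the counts. Positions are from GENCODE 44 and lengths are the union of its exons. The agreement of same-numbered replicates was checked over 15 pairs of groups (correlations of deviations -0.0458 to 0.109, 1 over 0.1), and the numbers were not used as pairs. Alternatives covered the tool, scaling, filter, samples fitted, a replicate block, the fold threshold and leaving out each library.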

Additional observations from a re-analysis of the deposited data

How the results depend on the processing

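For the 97 calls of single members, 2193 pairs of a call and an alternative setting could be compared, and none changed direction. Of these pairs, 2116 kept the call and 77 lost it, those at a fold threshold of 2 included. Pairs without a test of that gene, as under a stricter filter, are left out of these numbers. The call of 1 lower member in TN against Ctrl, ABCC6, became 0 with DESeq2, in a fit of the groups compared alone and at a fold threshold of 2, and leaving out a library gave 0 to 1. Lower members at a fold threshold of 2 numbered 5, 3, 4 and 5 for PRTN, BUTN, TNPR and TNBU, against 11, 10, 10 and 10. With the filter of at least 1 CPM on average, chosen after seeing the data, 8 members were higher in each of the 4 SCFA groups. Between PRTN and BUTN, 1 lower member, ABCC9, was called in a fit of these groups alone. Leaving out each library in turn gave 12 to 14, 12 to 13, 11 to 14 and 13 to 14 higher members for the same groups, and 10 to 11, 10 to 11, 9 to 11 and 10 to 12 lower. In such fits the lone library of a group is assumed to vary like the others. The counts over all genes moved with the library left out as well. The higher members can include ABCD2, ABCG1, ABCG2 and ABCA13, which passed the filter only through the SCFA groups. Nothing is drawn about the family from these ranges.

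The labels number the replicates in each group, and same-numbered libraries did not deviate together, so a replicate block is given only here: with it, 14, 13, 14 and 14 members were higher and 11, 10, 10 and 10 lower in PRTN, BUTN, TNPR and TNBU, 1 was lower in TN against Ctrl, and no count changed. With a few counts per library, the members under 1 CPM have wide counting intervals, and differences among their SCFA groups were not detectable at this depth.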
